A study of Sus scrofa with 3 samples.

Results

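A set of 97 genes stood at least 10 times higher in the visceral adipose tissue (VAT) library of castrated miniature pigs than in either other library of the study, and most of them encode products of hepatocytes, the main cell of the liver. The genes were chosen by their measured values, by a rule that took every mRNA gene with at least 10 UQRPKM in the castrated library and at least 10 times its value in the other libraries, and left out names that start with CYP and a digit, the cytochromes P450. UQRPKM is the number of reads per kilobase of gene, divided by an upper quartile taken within each library. The 97 genes were 0.426% of the 22790 mRNA genes to which the rule applied, out of 22826 mRNA genes and 34570 genes of all types in the deposited values. Because the rule used the contrast of the castrated library with the others, the size of that contrast is a description and carries no test.

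The 3 libraries came from the retroperitoneal fat of male Chinese Wuzhishan miniature pigs that all ate the same diet rich in fat and cholesterol (HFC diet) for 12 weeks. They were 6 to 7 months old when obtained and were kept on a standard diet for 7 weeks before being grouped. Intact male pigs (IM) kept their testes and had skin incisions only, castrated male pigs (CM) were gonadectomised, while the CMT group, also castrated, had testosterone replaced by weekly injections of 10 mg/kg testosterone propionate in corn oil. RNA of 4 pigs (or of 4 to 6, as the sample labels have it) was pooled in equal amounts within a group, and 1 library was made per pool. There was therefore no replicate, and a single pig that differed from the others of its pool cannot be told apart from the treatment of its group.

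The deposited values resolved into whole reads for all 20838 genes above 0, which gave 14844063 reads on mRNA genes in IM against 13582288 in CM and 13449107 in CMT. Intervals given with ratios below are exact 95% intervals from these reads, and they cover counting error only, not the spread between pigs. Unlabelled runs of 3 values give UQRPKM in the order IM, CM, CMT. Where a library had no read of a gene, the ratio is given as a lower bound against 3 reads in that library. ADIPOQ, the adipocyte gene of adiponectin, was at 74928 UQRPKM in IM against 69193 in CM and 63873 in CMT, while ADRB3 of the same marker list was low in all 3 libraries (2.74, 0 and 0.560), and none of the 14 measured adipocyte markers belonged to the set. Skeletal muscle markers stood apart in CMT, where the 10 measured genes summed to 6130.3 UQRPKM against 82.3 in IM and 68.3 in CM, and their part in the results was not tested. In RNA from whole tissue, fewer cells of a type and less RNA per cell cannot be told apart.

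Hepatocytes make most of the proteins of blood plasma, among them albumin, transport proteins for iron, haem, lipids and hormones, clotting factors, complement components and protease inhibitors. They also hold the enzymes that clear amino acid nitrogen as urea, break down aromatic amino acids, form ketone bodies and conjugate drugs. Adipocytes share a part of this repertoire, such as apolipoprotein E and retinol binding protein.

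Of the 97 genes, 77 fell into a hepatocyte class: 71 were on 1 of the 12 hepatocyte lists and 6 were added to a class afterwards. Secreted plasma proteins made up 51 of the 77, 21 were in the enzyme classes, counting the fatty acid binding protein FABP1, and 5 were membrane proteins. No hepatocyte transcription factor was in the set. Another 8 genes had a name or product name outside these classes, and 12 were loci without a name. The lists were chosen with earlier results of these data known, so shares of list genes here and below are a description. They also hold genes that other cells make, such as APOE and RBP4 in adipocytes, and FCN2, HGF and CEBPA are on lists of other cell types too. Of the 280 genes of the hepatocyte lists with a deposited value, 71 belonged to the set, or 25.4%, beside the 0.426% of all mRNA genes. Another 32 of the 280 were below 1 UQRPKM in all libraries. On the lists of 14 other cell types 1 of 142 measured genes did, or 0.704%, and that gene, APOA4, is also on the apolipoprotein list.

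**Figure D1:**
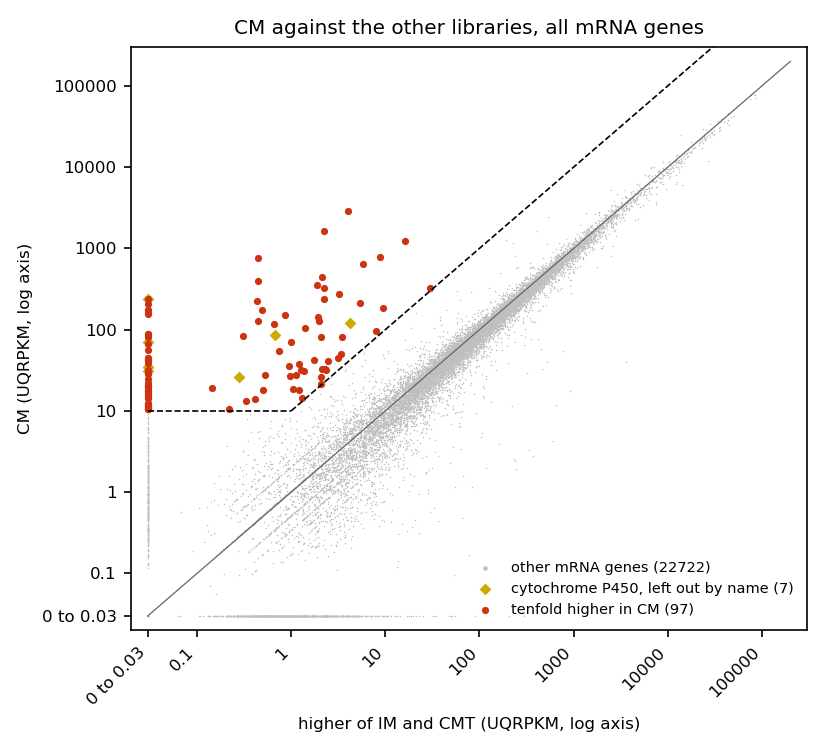
Each point is an mRNA gene, with its level in CM against the higher of its levels in IM and CMT, in UQRPKM on log axes. The solid line marks equal levels, the dashed lines the limits of the rule. The 97 genes of the set, in red, lie above the dashed lines away from the cloud of other genes, and 7 cytochrome P450 genes, in yellow, share that area and were left out by name.

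Levels within the set ran from 10.4 UQRPKM in CM for DMGDH to 2910.1 for ALB, with a median of 40.7, and 29 of the 97 genes reached 100 UQRPKM. In CM the set took 33369 reads, 0.246% of the reads on mRNA genes (0.243% to 0.248%, exact 95% interval). It took 275 reads in IM, 0.00185% (0.00164% to 0.00208%), and 254 in CMT, 0.00189% (0.00166% to 0.00214%). The shares in IM and CMT had overlapping intervals. That the share in CM lay above both follows from how the genes were chosen. A few genes carried most of the signal: ALB alone gave 31.8% of the reads of the set in CM, and the 6 highest genes gave 52.1% of its summed UQRPKM. ALB ranked 317th among mRNA genes in CM, under 10 of the 14 measured adipocyte markers.

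In the other libraries the set was near the limit of detection. Of the 97 genes, 44 were listed at 0 in both IM and CMT, 13 in IM only and 14 in CMT only, while 26 had a value above 0 in both. The listing at 0 was rare among well-covered genes: of 11723 mRNA genes with at least 20 reads in both CM and CMT, 1 was at 0 in IM, and of 11787 with at least 20 reads in both IM and CM, 5 were at 0 in CMT. Some zeros cannot be read as absence, since 5990 mRNA genes were listed at 0 in all 3 libraries, SERPINF1 and CD163 among them.

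**Figure D2:**
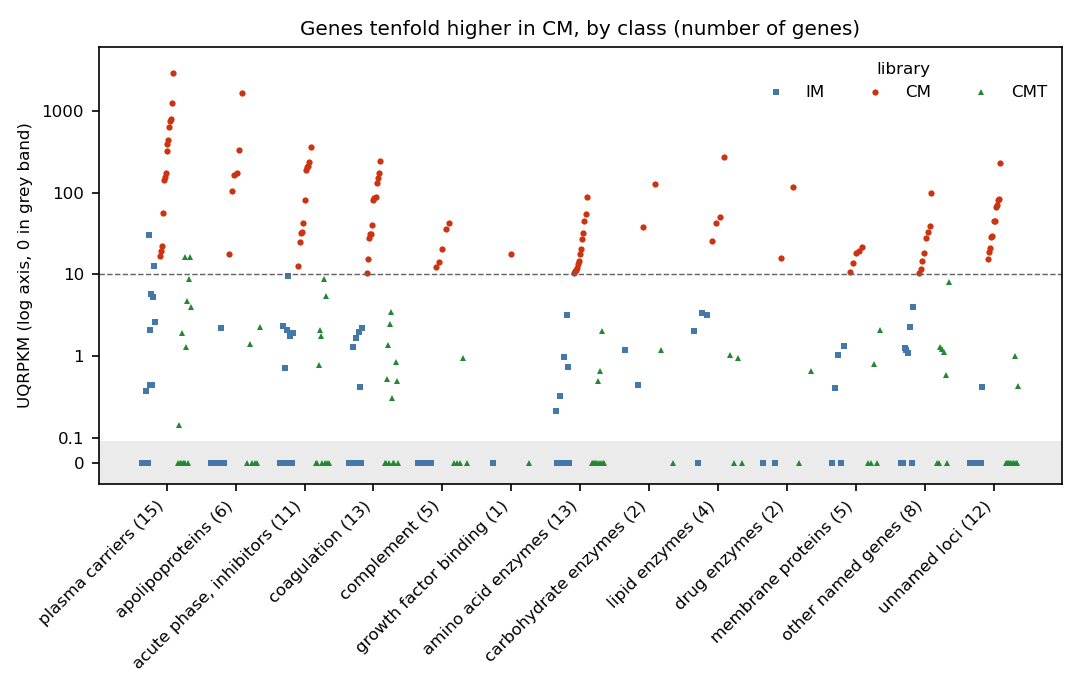
Level of each of the 97 genes in the 3 libraries (IM blue squares, CM red circles, CMT green triangles), by class, in UQRPKM on a log axis with 0 in the grey band. Plasma carriers and apolipoproteins reach the highest levels in CM, up to 2910.1 UQRPKM for ALB, while membrane proteins stay at or under 21.7. The dashed line is the 10 UQRPKM limit of the rule.

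Plasma carrier proteins formed the largest and highest class, with 15 genes that summed to 8056 UQRPKM in CM, 59.7 in IM and 53.4 in CMT. ALB, which encodes serum albumin, was at 2.61 UQRPKM in IM against 2910.1 in CM and 4.00 in CMT. It was 1114 times higher in CM than in IM (605 to 2323) and 727 times higher than in CMT (441 to 1300). The 10 reads in IM and 15 in CMT, against 10612 in CM, meant that albumin reads were present in every library.

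HP, the haemoglobin-binding haptoglobin, followed with 12.6 UQRPKM in IM against 1226 in CM and 16.3 in CMT. TF, transferrin, the iron carrier, was at 5.25 in IM against 781 in CM and 8.74 in CMT. HPX, the haem carrier haemopexin, was at 0.440 in IM against 755 in CM and 0 in CMT. These carriers of iron and haem were near one another in CM, but HP had 26 reads in IM where HPX had 1, so that HP was 97.6 times higher in CM than in IM (66.5 to 150) and HPX 1715 times (307 to 67762).

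TTR (transthyretin), the carrier of thyroid hormone and of the retinol complex, was at 5.76 UQRPKM in IM against 640.2 in CM and 4.70 in CMT. Its partner RBP4, which adipocytes also make, was no member and differed little between libraries, at 3291, 4246 and 3611 UQRPKM in IM, CM and CMT. FETUIN (AHSG), the mineral-binding fetuin-A, was at 2.11, 441 and 1.29, and its relative FETUB at 0, 22.0 and 0. The vitamin D binding protein gene GC (0 in IM, 156 in CM, 0 in CMT), ORM1 (orosomucoid, 56.7 in CM, 0 in the others) and HRG (histidine-rich glycoprotein, 175 in CM, 0 in the others) had reads in CM alone. The copper carrier ceruloplasmin, CP, was low even in CM, at 19.1 UQRPKM.

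VTN had the smallest ratios among the carriers with reads in both IM and CMT. It encodes vitronectin, an adhesive glycoprotein of plasma and matrix, and its levels were 30.1 UQRPKM in IM against 323 in CM and 16.3 in CMT. At 10.7 times IM (8.35 to 14.0) and 19.8 times CMT (14.2 to 28.6), it sat just inside the limit of 10 times, and its interval against IM reached below 10. With ITIH1 and HP it supplied 131 of the 275 reads of the set in IM and 103 of the 254 in CMT.

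**Figure D3:**
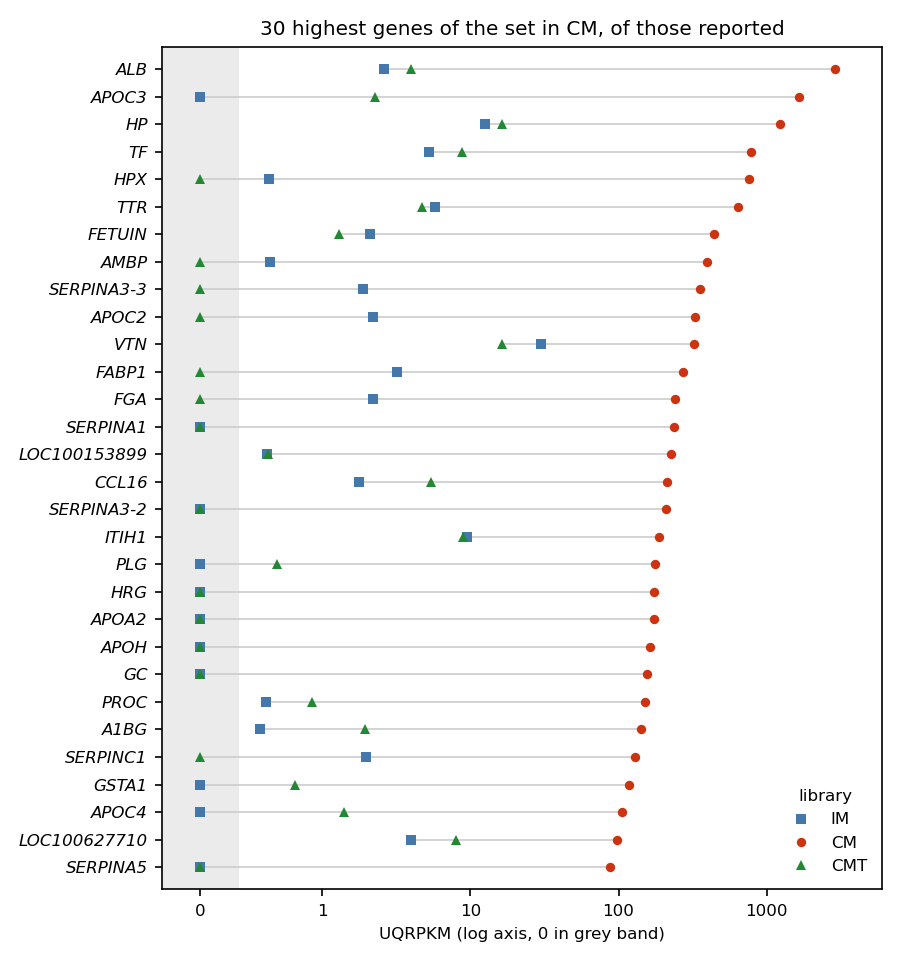
The 30 genes with the highest level in CM among those of the set that are reported by name, each with its value in IM (blue squares), CM (red circles) and CMT (green triangles), in UQRPKM on a log axis with 0 in the grey band. ALB, APOC3 and HP are the highest in CM, at 2910.1, 1645 and 1226 UQRPKM, and VTN shows the shortest distance between CM and the other libraries.

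The apolipoprotein members, 6 of 17 measured genes on their list, were APOC2, APOC3, APOC4, APOA2, APOA4 and APOH. APOC3, an inhibitor of triglyceride clearance, was at 0 UQRPKM in IM against 1645 in CM and 2.26 in CMT, at least 496 times IM and 729 times CMT (201 to 6025). APOC2, the activator of lipoprotein lipase, was at 2.21, 327 and 0, and APOC4 next to it in the genome at 0, 105 and 1.40. APOA2, a protein of high-density lipoprotein, was at 174 in CM and 0 in the others, APOH (the phospholipid-binding beta-2-glycoprotein) at 162 and 0, and APOA4 at 17.7 and 0.

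Apolipoprotein genes with high levels in every library stayed out of the set. APOE was at 13950 UQRPKM in IM against 24527 in CM and 11363 in CMT, which is at least 1.5 times both but far from 10 times. APOA1, the main protein of high-density lipoprotein, was at 2539, 2339 and 1714, with no excess in CM. APOB, the structural protein of very-low-density lipoprotein, was listed at 0 in all libraries, and so was LCAT.

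The clotting and fibrinolysis list held 13 members of 25 measured genes, and no measured gene of this list was lower in CM by 1.5 times. All 3 fibrinogen chains were in the set, but at unequal levels per kilobase: FGA was at 2.21 UQRPKM in IM against 241 in CM and 0 in CMT, FGB at 0, 30.8 and 1.38, and FGG at 0, 10.5 and 0. FGA was thus the highest of the chains and FGG the lowest, just over the limit of 10. Their sum was 282 UQRPKM in CM, 2.21 in IM and 1.38 in CMT.

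PLG, plasminogen, which dissolves fibrin once activated, was at 0 UQRPKM in IM against 175 in CM and 0.495 in CMT. The anticoagulant genes PROC (protein C) and SERPINC1 (antithrombin) were at 152 and 129 UQRPKM in CM, against at most 1.96 elsewhere. Also in the set were F2 (prothrombin, 1.68, 81.1 and 3.43), F9 (0, 27.6 and 0.531), KNG1 (kininogen, 0, 40.7 and 2.45), SERPIND1 (heparin cofactor, 84.6 in CM), SERPINA5 (the protein C inhibitor, 88.1 in CM), CPN2 and LOC100739841, the gene of the hepatocyte growth factor activator. F5, a factor that many tissues express, was lowest in CM, at 173, 148 and 198, and CPB2, an inhibitor of fibrin breakdown, missed the limit at 5.97, 51.0 and 2.18.

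Protease inhibitors and acute phase proteins gave 11 members. SERPINA1, which encodes alpha-1-antitrypsin, had 487 reads in CM and none in IM or CMT (235 UQRPKM), so that it was at least 170 times IM and at least 167 times CMT. SERPINA3-3 (1.90, 357 and 0) and SERPINA3-2 (0, 208 and 0) belong to the family of antichymotrypsin genes, whose copies are similar, and how reads that match several copies were assigned is not given in the sources used here. SERPINA11 (deposited as LOC100155953) was lower, at 12.5 UQRPKM in CM and 0 in the others.

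Inter-alpha-trypsin inhibitor joins a light chain from AMBP to heavy chains from ITIH genes, and the genes of this complex split. AMBP was at 0.447 UQRPKM in IM against 392 in CM and 0 in CMT, ITIH2 at 2.09, 81.7 and 0, and ITIH1 at 9.44, 186 and 8.85. ITIH1 was 19.7 times IM (14.2 to 28.2) and 21.0 times CMT (14.9 to 30.6). The other heavy chains were expressed in every library, with ITIH3 at 701, 877 and 1052 and ITIH4 at 141, 115 and 100.5, neither higher in CM by 1.5 times.

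Other secreted products of this class have roles in defence and iron balance. CCL16, a chemokine made by the liver, was at 1.76 UQRPKM in IM against 211 in CM and 5.40 in CMT. LBP, which binds bacterial lipopolysaccharide, was at 2.32, 32.1 and 0.791, and LECT2, a chemotactic factor, at 0, 32.6 and 2.12. PZP, of the alpha-2-macroglobulin family, was at 0.714, 41.9 and 1.75, while A2M itself was level at 93.3, 137 and 109. HAMP, hepcidin, the hormone that restrains iron export, was listed at 24.7 in CM and 0 in the others, but it rested on as few as 2 reads, and no fold is given.

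In the complement list, 5 of 27 measured genes were in the set, and the terminal pathway, which builds the membrane attack complex, was divided. C6 was at 20.5 UQRPKM in CM, C8A at 42.6 and C8B at 14.3, all at 0 in IM and CMT. C7 was at 227 in IM against 165 in CM and 329 in CMT, and C9 (deposited as LOC100037951) at 209, 122 and 114. C8G (LOC100037955), the remaining chain of C8, was at 23.1, 59.2 and 14.6, higher in CM by less than 10 times. The members MBL2, a lectin that starts complement activation on sugars, and C4BPB, a chain of a complement inhibitor, were at 36.1 and 12.3 UQRPKM in CM and below 1 elsewhere. The highest genes of the list in CM were FCN2 (4191, 4181 and 5787) and C1QC (3222, 2618 and 2452), and neither was a member.

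Hormone and growth factor genes were almost absent from the set. IGFBP1, an insulin-like growth factor binding protein that the liver secretes, was the single member among 16 measured genes, at 17.7 UQRPKM in CM and 0 in the others, from 7 or more reads. AGT, angiotensinogen, which adipocytes also secrete, was at 4216, 5450 and 5178, and IGF1 at 227, 161 and 155. SPP2, a phosphoprotein secreted to plasma and bone that was on no list, was at 17.0 in CM and 0 in the others, from as few as 2 reads.

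Enzymes of amino acid breakdown were the largest intracellular class, with 13 members that covered some steps of a pathway and not others. Of the 6 urea cycle genes, CPS1 (14.5 UQRPKM in CM, 0 in the others) and OTC (11.9 in CM, 0 in the others), the mitochondrial steps, were members. ASS1 and ASL, the cytosolic steps that many tissues use, were at 249, 338 and 207 and at 146, 153 and 99.2. ARG1, the last step, was at 0.631, 3.64 and 1.29, so ASS1 and ASL made up most of the summed level of the cycle in every library. CPS1 rested on 111 reads and OTC on as few as 1.

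Tyrosine breakdown gave a like picture. HPD, which converts the keto acid of tyrosine, was at 87.6 UQRPKM in CM and 0 in IM and CMT, at least 49.3 and 48.3 times higher. TAT, the step before it, was at 8.29 in CM and 0 in the others, under the limit of 10. FAH, the last step, was at 3682, 3607 and 2916 in IM, CM and CMT, and HGD was listed at 0 in all.

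Betaine and methionine metabolism had most of its genes in the set. BHMT and BHMT2, which remethylate homocysteine, were at 32.2 and 10.9 UQRPKM in CM and 0 in the others. DMGDH, the next enzyme on the way of betaine, was at 0.216, 10.4 and 0, and MAT1A, the liver form of methionine adenosyltransferase, at 0.743, 55.2 and 0. MAT1A was 74.2 times IM (28.7 to 274) and at least 97.0 times CMT. SARDH (7.38, 12.1 and 1.40) and GNMT (11.8, 44.0 and 31.4) were expressed in each library and AHCY was level at 232, 241 and 245, so 4 of the 7 genes were members.

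**Figure D4:**
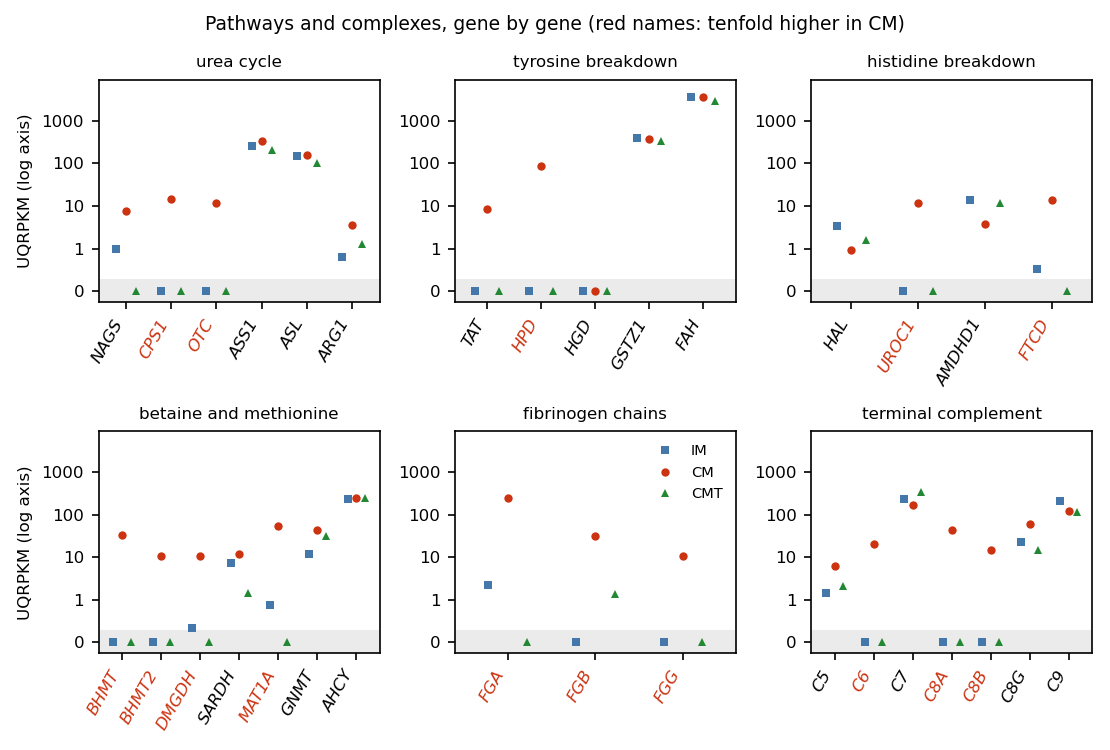
Levels in IM (blue squares), CM (red circles) and CMT (green triangles) of genes of 4 metabolic pathways, of the fibrinogen chains and of the terminal complement genes, in UQRPKM on log axes with 0 in the grey band. Red names belong to the set. In most panels genes of the set stand next to genes expressed in all libraries, such as FAH and ASS1, whereas all fibrinogen chains belong to the set.

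Shorter pathways were divided as well. For pyrimidines, DPYS (0.973, 26.9 and 0.662 UQRPKM) and UPB1 (3.17, 45.3 and 2.02), the later steps, were members, while DPYD, the first, was level at 220, 212 and 197. For histidine, UROC1 and FTCD were members at 11.5 and 13.4 in CM, whereas HAL (3.31, 0.925 and 1.57) and AMDHD1 (13.8, 3.82 and 11.9) were lower in CM by 1.5 times than in both other libraries. The reads were few: HAL had 15, 4 and 7, AMDHD1 19, 5 and 16, and UROC1 as few as 2 in CM. Whether HAL and AMDHD1 differed between libraries was not tested. TDO (tryptophan dioxygenase, 20.1 in CM and 0 in the others) opened tryptophan breakdown, and the next enzyme measured, KMO, was at 29.0, 32.1 and 47.7. AGMAT, annotated as agmatinase, was at 0, 17.9 and 0.498. Among enzymes of this list that stayed out, OAT was at 1163, 1244 and 934, highest in CM but by less than 1.5 times.

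Carbohydrate and lipid enzymes were few in the set. LOC100736786, named for its similarity to the regulator of glycolysis PFKFB1, was at 1.18, 38.2 and 1.20 UQRPKM. PC (24830, 21425 and 20100.0) and PCK1 (5402, 3377 and 5326), which fat uses to make glycerol, were high in all libraries, and PCK1 was lower in CM by 1.5 times.

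FABP1, the fatty acid binding protein of liver, was at 3.20 UQRPKM in IM against 272 in CM and 0 in CMT, from at least 81 reads in CM. ACAA1 (7902, 9056 and 5730) and ACSL1 (4883, 5214 and 3962) were high throughout. HSD17B13, a lipid droplet protein of hepatocytes, was at 3.39, 50.8 and 0.944, and LOC733634, an aldo-keto reductase gene now named AKR1C1, at 2.05, 25.8 and 1.05. A separate gene deposited under the name AKR1C1 was at 0.793, 0.416 and 0, and so was not higher in CM.

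Of drug-handling enzymes outside the cytochromes P450, GSTA1, a glutathione transferase, was at 0, 118 and 0.651 UQRPKM and ADH4, an alcohol dehydrogenase, at 0, 15.8 and 0. CES1 (1697, 2125 and 901) and ADH1C (1691, 1785 and 1696) had high levels in every library. GSTA1 and LOC733634 belong to families of similar copies whose reads may have been shared.

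Membrane proteins were low, with 5 members at or under 21.7 UQRPKM in CM. TFR2, a sensor of transferrin iron, was at 1.35, 21.7 and 2.06 and had the smallest ratio of the set, 10.5 times CMT (5.30 to 23.7). SLC22A7, an organic anion transporter, was at 1.05, 18.4 and 0.801, and GJB1, a gap junction protein, at 0, 19.4 and 0. ASGR2, a chain of the receptor that removes desialylated glycoproteins, was at 0.412, 13.8 and 0, and its partner ASGR1 at 5.01, 54.7 and 10.7, which is over 5 times both but short of 10 times. GHR (1864, 1897 and 1772) and SLCO2B1 (112, 108 and 92.3) were level.

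Transcription factors that set hepatocyte identity gave no member. CEBPA, shared by liver and fat, was at 3196, 3723 and 2778 UQRPKM, and TBX3 at 73.3, 47.1 and 40.4. HNF4A was at 10.9, 18.1 and 7.62, and CREB3L3 at 3.76, 14.7 and 0.348. Of the 16 measured factors, 14 reached 1 UQRPKM in a library and 8 were at least 1.5 times higher in CM than in both others. This call was met by 6.53% of the 15722 mRNA genes with 1 UQRPKM or more in a library. However, 5 of the 8 had 5 or fewer recovered reads in CM, which are lower limits where the recovered length is short.

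The genes of the hepatocyte lists that the rule left out were also often highest in CM. Of 177 such genes with at least 1 UQRPKM in a library, 114 had their highest value in CM, or 64.4%, beside 30.0% of all mRNA genes at that level. Some of these 114 had at least 1 UQRPKM in CM and 0 in IM and CMT. The bile acid pump ABCB11 (2.98 in CM) had 28 recovered reads there and the transporter SLCO1B3 (8.30 in CM) had 15. Others of this kind rested on as few as 1 recovered read, such as AFM (3.79 in CM) and SLC10A1 (1.98 in CM). Of all 280 hepatocyte list genes, 248 reached 1 UQRPKM in a library and 4 were lower in CM by 1.5 times than in both others. That call was met by 5.47% of mRNA genes at that level.

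**Figure D5:**
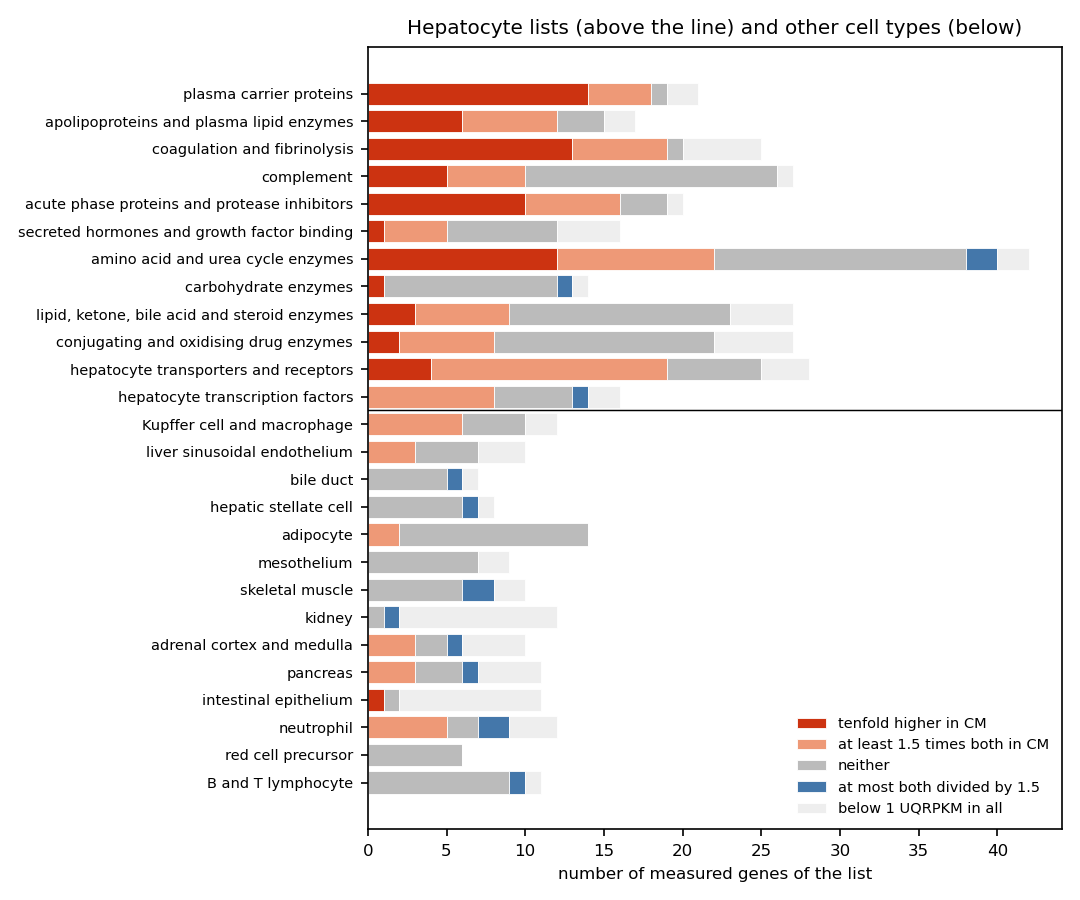
Number of measured genes on each hepatocyte list (above the line) and on each list of another cell type (below it), by how CM compared with IM and CMT. Red parts are genes of the set, orange parts genes at least 1.5 times both but not in the set, and blue parts genes lower by 1.5 times. Plasma carriers and clotting genes are mostly red, while the lists of other cell types hold 1 red gene, APOA4.

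Other cells of liver were followed through their markers. Of 12 Kupffer cell and macrophage genes, 10 reached 1 UQRPKM in a library and 6 were at least 1.5 times higher in CM than in both others. This call was met by 6.53% of mRNA genes at that level. The list summed to 661 UQRPKM in IM against 915 in CM and 599.9 in CMT. VSIG4 was at 155, 279 and 177, CSF1R at 285, 246 and 221, and CLEC4F and CD163 were listed at 0 in all. Of 10 genes of liver sinusoidal endothelium, 7 reached 1 UQRPKM and 3 met the same call, led by CLEC4G at 2.95, 13.2 and 1.51. STAB2 was at 0, 0.844 and 0, and the sums of the list were 4809, 4739 and 6399. Bile duct genes gave no higher gene of 7 (ANXA4 at 1433, 1708 and 1182, SPP1 at 204, 100.2 and 187), and neither did the 8 stellate cell genes (DCN at 11012, 11158 and 14747, COL1A1 at 4453, 2235 and 2580). Macrophages, endothelium and stroma of fat share many of these genes.

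Of 12 measured neutrophil genes, 9 reached 1 UQRPKM in a library. At least 1.5 times higher in CM than in both others were 5, beside 6.53% of mRNA genes at that level. Lower by 1.5 times were 2, beside 5.47%, namely MMP9 (16.9, 5.81 and 12.5) and LTF (3.77, 0.609 and 2.67). The 12 genes together gave 533 UQRPKM in IM against 4956 in CM and 991 in CMT, with S100A12 at 323, 2449 and 537 and S100A8 at 90.4, 1272 and 193. None met the limit of 10 times, MPO was at or below 0.558 in each library, and CSF3R was listed at 0 in all. Their part in the set was not tested.

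Markers of other organs near retroperitoneal fat differed in level. Kidney genes summed to 8.95, 1.47 and 2.27 UQRPKM over 12 genes, of which 8 were listed at 0 in all. SLC5A2 had the highest CM value among these genes but was itself lower in CM than in IM and CMT (7.58, 0.884 and 1.72). Intestinal genes other than APOA4 were at most 1.96 in CM, for MUC2, and FABP2 and CDX2 were listed at 0. Of 10 adrenal genes, 6 reached 1 UQRPKM in a library and 3 were higher in CM by 1.5 times than in both others. HSD3B1 was at 336, 592 and 369 and STAR at 25.3, 22.7 and 27.6, with CYP11A1 and CYP17A1 listed at 0. Of 11 pancreas genes, 7 reached 1 UQRPKM and 3 met this call. CELA2A was at 29.2, 55.2 and 14.9 and CEL at 34.5, 12.1 and 19.7, with INS listed at 0. The call was met by 6.53% of mRNA genes at that level. The mesothelial genes KRT8 (51.2, 102 and 307) and KRT19 (32.6, 62.1 and 194), the muscle genes ACTA1 (49.8, 39.8 and 3589) and MYLPF (13.3, 11.8 and 645), the red cell genes HBB (4534, 4193 and 2331) and ALAS2 (56.2, 45.4 and 32.5), and the lymphocyte genes CD2 (121, 107 and 119) and CD8A (80.2, 84.1 and 82.1) were not higher in CM by 1.5 times than in both other libraries, and neither was PLIN1 of the adipocyte list (18396, 18587 and 12504). In that list 2 of 14 genes were, beside the 6.53% of mRNA genes, LEP (leptin, 167, 502 and 156) and SLC2A4 (161, 268 and 120).

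The 8 named genes outside the hepatocyte classes were at 10.5 to 97.3 UQRPKM in CM, with a median of 22.8. LOC100627710, whose product name is a histone demethylase 4B-like protein, was at 3.95, 97.3 and 8.06, from 47 reads in CM, and its interval against CMT was wide (12.1 times, 4.42 to 46.2). ACSM4, of the medium-chain acyl-CoA synthetases, was at 38.6 in CM and 0 in the others, at least 38.8 and 38.0 times higher. C2H19orf59, now named MCEMP1, encodes a membrane protein of mast and myeloid cells and was at 2.30, 33.2 and 0.588. LOC100525396, a C-X-C chemokine, was at 1.18, 18.0 and 1.21.

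The remaining named genes rested on few reads. C3H7orf61 was at 1.09, 27.5 and 1.11 UQRPKM and LOC100739609, similar to a transglutaminase, at 1.26, 14.6 and 1.29, each with 1 read in IM and 1 in CMT. GCSAML (11.5 in CM) and LGALS13, a galectin known from placenta (10.5 in CM), were at 0 in the others, from 5 or more and 8 reads. Such counts do not separate a ratio of 10 from a much smaller one.

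The 12 loci without a name summed to 729 UQRPKM in CM, 0.423 in IM and 1.43 in CMT. LOC100153899 was the highest, at 0.423, 227 and 0.432. LOC100156325 (83.4 in CM), LOC102157831 (81.1), LOC102157937 (66.5), LOC100511647 (44.3) and LOC102157978 (44.3) were at 0 in the others, and LOC100739241 was at 0, 69.7 and 0.997. What these loci encode was not taken from their values.

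Position was a feature that the rule did not use. In the RefSeq gene order of the Sscrofa11.1 assembly, which is newer than the Sscrofa10.2 build of the deposited values, 85 of the 97 genes had a place, and 23 of them stood in 9 runs of 2 or more adjacent members. Members were 0.435% of all genes placed in that order. The runs were FGG, FGA and FGB; FETUIN, FETUB, HRG and KNG1; DMGDH, BHMT2 and BHMT; SERPINA3-3, LOC100156325 and SERPINA3-2; SERPINA1 and SERPINA11; C8B and C8A; APOC4 and APOC2; APOA4 and APOC3; and LOC100520680 and LOC100525396. Members of a run are mostly related copies or chains of 1 protein, many of which share sequence, so a run is not a count of independent genes.

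Most genes beside the members were not higher in CM, but the share that was did not lie below that of all mRNA genes. Of the 125 nonmember genes next to a member, 99 had at least 1 UQRPKM in a library. Of these, 9, or 9.09%, were at least 1.5 times higher in CM than in both others, beside 6.53% of all mRNA genes. The 6.53% stands for 1027 of 15722 genes and counts the 97 members, whereas the neighbours leave members out. Without the members, 930 mRNA genes met the call. The difference between the shares was not tested. PLRG1, next to the fibrinogen genes, was at 40.1, 25.6 and 27.5 UQRPKM, and EIF4A2, next to KNG1, at 2763, 3274 and 3309. APOA1, beside APOC3, and APOE, beside APOC4, are given above. PPBP, a platelet and myeloid chemokine beside LOC100520680, was at 0, 296.9 and 58.2, and it was the gene listed at 0 in IM despite at least 20 reads in both other libraries.

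Between IM and CMT the rule set no direction, since it only kept both far below CM. Of the 17 members with at least 1 UQRPKM in both, CMT was at least 1.5 times IM in 6, where 8.81% of the 14151 mRNA genes at that level met the call, and IM was at least 1.5 times CMT in 4, where 11.9% did. The counts behind them were small: the 95% interval of the ratio left out 1 for 1 of the 17, VTN, at 0.540 times in CMT against IM (0.350 to 0.821). TF was at 1.67 times (0.911 to 3.12) and ALB at 1.53 times (0.643 to 3.81), and neither direction was resolved at this depth.

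At the edge of the rule, the members nearest inside the limit of 10 times were TFR2 at 10.5 times the higher of the other libraries, VTN at 10.7 and LOC100739609 at 11.3. Nearest outside were LEAP2, an antimicrobial peptide of liver, at 9.97 (2.66, 26.5 and 0 UQRPKM), ICA, a carbonic anhydrase inhibitor of the transferrin family, at 9.64 (6.09, 58.7 and 3.55) and CPB2 at 8.54. At the limit of 10 UQRPKM in CM, DMGDH (10.4), LGALS13 (10.5) and FGG (10.5) lay just inside, and GULO (9.81), FADS6 (9.65) and HABP2 (9.57) just outside. HABP2 is a plasma protease on the clotting list.

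Reads set how far each ratio is known. The median member had 79 recovered reads in CM, 40 members had at least 100, and 4 had 3 or fewer (HAMP, OTC, SPP2 and UROC1). These 4 had recovered lengths of 57 to 123 bases, so their reads are lower limits. For 57 of the 97, the lower limit of both ratios, or the bound against 3 reads, was at least 10. In IM 19 members had 1 to 3 reads and 21 had more, and in CMT the numbers were 24 and 15. The members with the most reads outside CM were VTN, ITIH1, HP, TF, ALB, PZP, F2, TFR2, HSD17B13 and UPB1.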

How the data were processed

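The authors pooled RNA of each group, made single-end libraries with an Ion Total RNA-Seq kit, sequenced them on an Ion Proton and mapped reads to Sscrofa10.2 with MapSplice. The values they deposited are UQRPKM, an RPKM scaled by the upper quartile of each library; which annotation was used, and how reads with several matches were treated, is not given in the sources used here. Scaling of this kind moves all genes of a library together.

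The 3 tables were joined on gene name. Whole reads were recovered as value × upper quartile × length over a constant, with upper quartiles of 149 (IM), 142 (CM) and 146 (CMT), within a relative tolerance of 2e-08; 100.0% of genes above 0 came out whole. The shortest length that fits was taken, so reads of genes with a short recovered length are lower limits. The step was tested on simulated data. Reads served for Clopper-Pearson intervals, read shares, the bounds against 3 reads and the check of zeros. With 1 library per group no test was made. List genes were matched by deposited symbol, otherwise by current RefSeq name, and symbol changes by gene ID. No sequence is printed. A few genes are counted in the totals but not reported here by name.

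The members and lists were chosen with earlier results of these data known. Named genes were the 4 highest members and 2 highest nonmembers of each hepatocyte list, members with a symbol on no list, the 8 highest unnamed or LOC members, the 3 genes on each side of both limits, the 10 members with most reads in IM and CMT, and the 2 highest genes of each other list; genes of the pathways, adjacent genes and the remaining members were named after their values were seen. Alternatives were other limits, scalings, a pseudocount of 1 UQRPKM and a floor of 3 reads. Python 3.11.15 with pandas 2.3.3, SciPy 1.17.1 and matplotlib 3.10.9 was used.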

Additional observations from a re-analysis of the deposited data

Results flagged for a closer look

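Data outside the mRNA rule also met its numeric limits. Besides the members, 13 genes of other types (8 of them miscRNA and 2 tRNA) had at least 10 UQRPKM in CM and 10 times IM and CMT, and they were singled out because the comparisons above use mRNA genes only. LOC100739222, a miscRNA, was the only one with many recovered reads, 151 in CM and 1 in CMT (0, 53.8 and 0.347 UQRPKM in IM, CM and CMT). The others had between 1 and 14 recovered reads in CM, which are lower limits where the recovered length is short. The 7 cytochrome P450 genes left out by name were CYP2E1 (0, 240.5 and 0), CYP2D25 (2.04, 121 and 4.17), CYP1A2 (0.681, 87.1 and 0), CYP2C49, CYP2C32, CYP2C33 and CYP4A21, which encode oxidising enzymes of hepatocytes.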

How the results depend on the processing

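The number of members, 97, was 462 with no minimum in CM, 258 with at least 1 UQRPKM and 42 with at least 50, and 57 when both lower counting limits had to reach 10, a setting chosen after seeing the data; the wider sets held all 97 and the narrower ones were subsets. Members on a hepatocyte list numbered 71 as reported, 104 and 101 in the wider sets and 36 with at least 50 UQRPKM. Under the other settings (5 or 20 times, 3 scalings, a pseudocount, all gene types, CYP names kept, a floor of 3 reads, at least 10 reads in CM) the number lay between 80 and 123. Members with IM at least 1.5 times CMT, 4 as reported, were 1 with 1 UQRPKM added and 7 with no minimum level, and 3 or 4 under the 3 scalings, added after seeing the data; those with CMT at least 1.5 times IM, 6 as reported, lay between 4 and 9. Because the rule required 10 times, no log2 ratio of a member could change sign under the pseudocount or the 3 scalings. The scalings moved log2 ratios by at most 0.062. The check of ratios covered members and the 2 highest nonmembers of each list, so further genes near 0 were not checked. Under the scaling with most such cases, 29 ratios left their counting interval and 151 stayed within it. Among the nonmembers checked, the log2 ratios of 4 genes near 0 changed sign under a scaling: CM over IM of FAH (from -0.030 to at most 0.032), FCN2 (-0.0036 to 0.058) and SLCO2B1 (-0.061 to 0.00049), and CM over CMT of CD8A (0.035 to -0.020). Each group had 1 library, so no library could be left out, and intervals cover counting error but not the spread between pigs. No paired analysis was possible because each group had 1 pooled library. Depth limits ratios to genes with few reads in IM and CMT.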
